A study of Cucumis sativus with 6 samples.

Results

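Receptor-like kinases and their kinase-less relatives, the receptor-like proteins, were examined in female flower buds of cucumber (Cucumis sativus). Members were the genes of one deposited table whose Swiss-Prot description contains receptor-like, receptor kinase, receptor protein kinase, wall-associated or lectin-domain containing receptor, and none of the annotations of which mention calmodulin or calcium. This gave 45 of the 1589 genes in the table. The buds were taken 7 days before anthesis from homozygous Cshec2 mutant plants (3 libraries) and from wild type plants (3 libraries), and total RNA was sequenced, in a series that is about wart formation on the fruit. How the mutation was made, how many mutant lines were used and whether plants were pooled are not given in the labels, which name the tissue, the stage and the genotype. The samples of each genotype are called biological replicates in the design text. No description in the table names HECATE (0 genes), so the mutated gene was not analysed here.

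A receptor-like kinase reads the cell surroundings with an extracellular domain and passes the signal on through a cytoplasmic serine/threonine kinase domain. Leucine-rich repeats commonly bind peptides and small hormones, lectin domains bind sugars, the cysteine-rich domain is typical of a family linked to stress and reactive oxygen, and wall-associated kinases bind pectin. Receptor-like proteins lack the kinase and act with partner kinases. In flowers, such receptors are known for roles in organ growth, abscission, fertilisation and defence.

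The members were divided by their extracellular domain, from the description or the Pfam annotation, into 20 leucine-rich repeat, 12 lectin, 3 cysteine-rich, 1 wall-associated and 9 other genes. The name of the family does not hold for every member at the level of domains. A kinase domain was annotated in 33 of the 45 genes and not in the other 12, of which 8 carried leucine-rich repeats, 3 a lectin domain and 1 the cysteine-rich domain. Among the 9 others were 3 genes described as cytosolic kinases (RBK1 and RBK2). None of the identifiers matched the RefSeq gene table (0 of 45), so no coordinates or sequences are given, and each name is a described similarity.

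All values are the authors' deposited normalised expression values, whose unit is not named. Apart from a median level and some summed values, they were used only to compare libraries for the same gene, and read depth is unknown. Every gene in the table had been listed by its authors as different between the genotypes, 18.4% of them upward and 81.6% downward in the mutant. Changes were tested with limma on log2(value + 1), with p-values adjusted over all 1589 genes and a threshold of 0.05. Of all listed genes, 92.7% passed this test, 18.4% as higher and 74.3% as lower, and 7.30% did not pass. Dividing the libraries by median-of-ratios size factors, which centres this selected table, moved the median log2 change of all listed genes by 0.74, from -0.77 to -0.03. For genes named as lower, the change after this scaling, or the count that passed after it, is therefore given with the deposited-scale result.

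In mutant buds, 6 of the 45 members passed as higher and 32 as lower, and 7 did not pass. As shares, 13.3% were higher and 71.1% lower, close to the 18.4% and 74.3% of the whole table, so the direction of the members was near its background. The changes of the members were small for this table. Their median log2 change was -0.55, which lay 0.22 above the median of all listed genes (-0.77), and 4 members (8.89%) passed with a log2 change of -1 or below, against 32.0% of all listed genes. No member passed as higher by at least 1 (0 of 45), against 3.08% of all listed genes. The wild type mean was at least 2-fold above the mutant mean in 28.9% of the members and in 49.8% of all listed genes, a ratio that does not depend on the added 1. The log2 changes do depend on it, because the added 1 compresses changes at low values. The median level over all libraries was 1.83 for the members and 6.61 for all listed genes. In the authors' deposited log2 fold changes the medians were closer, at -0.77 for the members and -0.87 for all listed genes. The 3 mutant values lay below all 3 wild type values in 35 members and above them in 6, and 4 members overlapped, while 75.7% of all listed genes lay below, 18.3% above, and 5.98% overlapped.

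Once the libraries had been scaled by those size factors, the 6 higher members passed again, and 3 passed as lower (Csa5G168240, Csa1G071280 and Csa1G065930). The other 36 did not pass. Of all listed genes, 18.4% were then higher, 14.2% lower and 67.4% not passing. The sign of the change turned positive in 19 of the 32 lower members and in 388 of the 1180 lower genes of the table. A statement that a member was lower therefore refers to the deposited scale. The scaling moved the median change of all listed genes up by 0.74, so genes already higher were favoured to pass again. Of all listed genes, 293 were higher before it and 293 after it. Passing again as higher, or a larger change after scaling, is therefore not separate support for a higher gene. Because RNA came from whole buds, fewer cells of a type and less RNA per cell cannot be told apart.

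**Figure D1:**
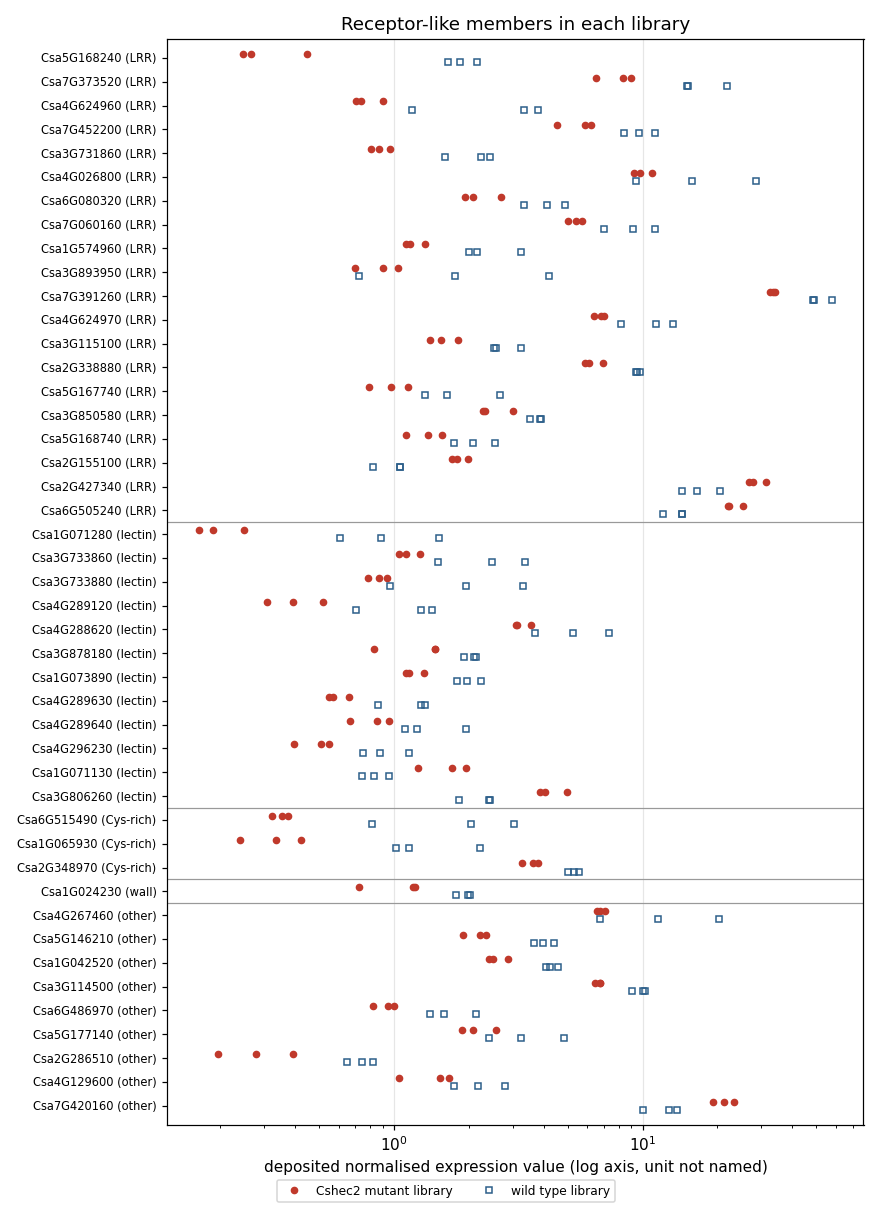
Deposited normalised value of each of the 45 members in each library, on a log axis, with filled circles for the 3 Cshec2 mutant libraries above open squares for the 3 wild type libraries, and rows grouped by extracellular domain. Mutant values lay below all wild type values in 35 rows and above them in 6, and the ranges overlapped in 4.

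The leucine-rich repeat class held 3 higher and 15 lower members, and 2 did not pass. These shares of 15% and 75% were near the 18.4% and 74.3% of all listed genes. The median log2 change was -0.63, which became 0.13 after median-of-ratios scaling. The 8 genes without an annotated kinase domain all passed as lower (8 of 8), beside 74.3% of all listed genes, with log2 changes from -1.13 to -0.40. After that scaling 1 of the 8 passed as lower and 6 had turned positive, beside 388 of the 1180 lower listed genes that turned positive. The 12 genes with a kinase domain held 3 higher and 7 lower ones, and 2 without a call. This was 25% higher and 58.3% lower, beside 18.4% and 74.3% of all listed genes. Whether the groups with and without a kinase domain differ was not tested.

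The largest decrease among all members was in a receptor-like protein. Csa5G168240, described as EIX2, which in tomato is a receptor for a fungal xylanase, measured 0.248, 0.266 and 0.445 in mutant buds and 1.65, 2.15 and 1.85 in wild type buds. Every mutant library was below every wild type library. The mean fell to 0.320 ± 0.109 in the mutant, against 1.88 ± 0.252 in wild type (SD, n = 3 each), a 5.89-fold difference, and the log2 change was -1.13 (SE 0.12, limma adjusted p = 0.00095). This lies 0.36 below the table median, and with scaled libraries the gene passed again, at -0.72 (limma adjusted p = 0.00324).

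Neighbouring identifiers are also described as EIX2 and changed less. Csa5G167740 measured 1.14, 0.972 and 0.791 in mutant buds and 1.33, 1.64 and 2.67 in wild type buds. Csa5G168740 measured 1.38, 1.57 and 1.12 in mutant buds and 1.74, 2.07 and 2.54 in wild type buds. Both had ranges that did not overlap and passed limma (log2 changes -0.53 and -0.40, adjusted p = 0.0326 and 0.0374), but neither call held without wild type library 2, wild type library 3 or any 1 of the mutant libraries, and both turned to small positive values after median-of-ratios scaling (0.01 and 0.18). The sources used here do not say how reads shared by similar copies were counted. The receptor-like protein Csa6G080320, described as RLP7, measured 2.24 ± 0.407 in mutant buds and 4.12 ± 0.780 in wild type buds (SD, n = 3 each; limma adjusted p = 0.0145), a call that was lost without mutant library 2 or 3 and a change that was 0.04 after scaling.

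Of 3 genes picked by description as related to the shared co-receptors of leucine-rich repeat receptors or their regulators, 2 passed as lower. This is beside 74.3% of all listed genes. Csa7G060160, described as BAK1, the partner kinase of brassinosteroid and immune receptors in Arabidopsis, measured 5.42, 5.69 and 4.996 in mutant buds and 11.2, 9.17 and 7.03 in wild type buds. The ranges did not overlap, and the log2 change was -0.65 (SE 0.20, limma adjusted p = 0.0184), which did not hold without any 1 of the mutant libraries and was 0.16 with scaled libraries. No kinase domain is annotated for this gene in the table. Csa7G373520, described by the Arabidopsis locus At5g48380, which encodes the BAK1-interacting protein BIR1, measured 9.01, 8.37 and 6.51 in mutant buds and 15.2, 15.1 and 21.8 in wild type buds. All mutant values were lower (log2 change -1.03, SE 0.21, limma adjusted p = 0.00541), 0.26 below the table median, and the change was -0.17 after scaling.

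Csa4G026800, described as the rice co-receptor SERK2, did not pass. It measured 10.9, 9.25 and 9.74 in mutant buds and 9.41, 15.7 and 28.6 in wild type buds (limma adjusted p = 0.113). Wild type library 1 lay among the mutant values and only wild type libraries 2 and 3 were above them. Csa7G452200, described as IOS1, a malectin-type receptor that associates with BAK1 in Arabidopsis immunity, measured 5.89, 6.18 and 4.54 in mutant buds and 9.66, 8.41 and 11.2 in wild type buds. Its ranges did not overlap (log2 change -0.72, SE 0.18, limma adjusted p = 0.0112), and the change was 0.10 after scaling.

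Both abscission receptors of Arabidopsis had a described relative among the lower members, beside 74.3% of all listed genes that were lower. RLK5 (HAESA) and HSL2 perceive the peptide IDA, which triggers shedding of floral organs. Csa1G574960, described as RLK5, measured 1.16, 1.12 and 1.33 in mutant buds and 2.00, 2.15 and 3.25 in wild type buds. Csa3G115100, described as HSL2, measured 1.54, 1.39 and 1.80 in mutant buds and 2.53, 2.57 and 3.24 in wild type buds. In each gene all 3 mutant libraries were below all 3 wild type libraries, with limma adjusted p of 0.0121 and 0.0123. The log2 changes of -0.64 and -0.55 were both smaller in size than the median of all listed genes (-0.77). After median-of-ratios scaling the changes were -0.05 and 0.08.

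A gene described as HAIKU2, a kinase that controls endosperm growth and seed size in Arabidopsis, had genotypes that overlapped. Csa3G893950 measured 1.04, 0.905 and 0.695 in mutant buds and 0.721, 1.77 and 4.19 in wild type buds (limma adjusted p = 0.132). Wild type library 1 was inside the mutant range, and wild type library 3 was 5.81-fold above library 1.

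Among genes described by an Arabidopsis locus alone, Csa4G624960 (At1g53440) measured 0.735, 0.907 and 0.707 in mutant buds and 1.18, 3.33 and 3.79 in wild type buds. The log2 change was -1.0 (SE 0.30, limma adjusted p = 0.0175). Wild type library 1 was closer to the mutant than to the other wild type libraries, and the call was lost without wild type library 2 (adjusted p = 0.0586), mutant library 1 (0.0525) or mutant library 3 (0.0516). After scaling its change was -0.46 and did not pass (limma adjusted p = 0.221). Its neighbour by identifier, Csa4G624970, has the same description but no annotated kinase domain, and measured 6.79, 7.00 and 6.39 in mutant buds and 8.17, 11.4 and 13.3 in wild type buds. The order of the libraries was the same in both neighbours within each genotype, with library 1 lowest and library 3 highest in wild type. The call of Csa4G624970 (limma adjusted p = 0.0249) was lost without any 1 of the mutant libraries or wild type library 2, and its change was 0.23 after scaling. Csa3G731860 (At3g47570) measured 0.867, 0.812 and 0.965 in mutant buds and 1.60, 2.25 and 2.44 in wild type buds, with ranges that did not overlap (log2 change -0.71, limma adjusted p = 0.00542), and the change was -0.17 after scaling, which did not pass (limma adjusted p = 0.353).

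The lower members that are left in the class were Csa7G391260 (IMK2), Csa2G338880 (At5g63710) and Csa3G850580 (At2g19210). Csa7G391260, described as a probably inactive kinase first named from the inflorescence meristem, measured 33.9, 32.7 and 33.5 in mutant buds and 57.7, 48.5 and 49.0 in wild type buds. The mutant libraries lay close together and all were lower (log2 change -0.61, limma adjusted p = 0.00742), although the change was 0.29 after median-of-ratios scaling. Csa2G338880 measured 6.30 ± 0.543 in mutant buds and 9.54 ± 0.194 in wild type buds, and Csa3G850580 measured 2.53 ± 0.408 in mutant buds and 3.77 ± 0.201 in wild type buds (SD, n = 3 each). The call of Csa2G338880 was lost without mutant library 2 or 3, and that of Csa3G850580 without those libraries, wild type library 1 or wild type library 2. Both changes were positive after scaling (0.29 and 0.26).

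The 3 higher leucine-rich repeat genes all carry a kinase domain. Csa6G505240, described by the locus At4g36180, measured 25.4, 22.1 and 22.2 in mutant buds and 12.1, 14.4 and 14.4 in wild type buds. Csa2G427340, described by At4g37250, measured 31.4, 26.7 and 27.8 in mutant buds and 20.5, 16.6 and 14.4 in wild type buds. Csa2G155100, described as receptor-like protein kinase 2 (RCH2), of a group that perceives root meristem growth factor peptides in Arabidopsis, measured 1.71, 1.80 and 1.99 in mutant buds and 1.06, 0.822 and 1.06 in wild type buds. All 3 mutant libraries were above all 3 wild type libraries in each gene. The mutant means were 1.70-fold, 1.67-fold and 1.87-fold the wild type means, with limma adjusted p of 0.00562, 0.0092 and 0.00758. After median-of-ratios scaling the log2 changes were 1.61, 1.60 and 1.05.

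**Figure D2:**
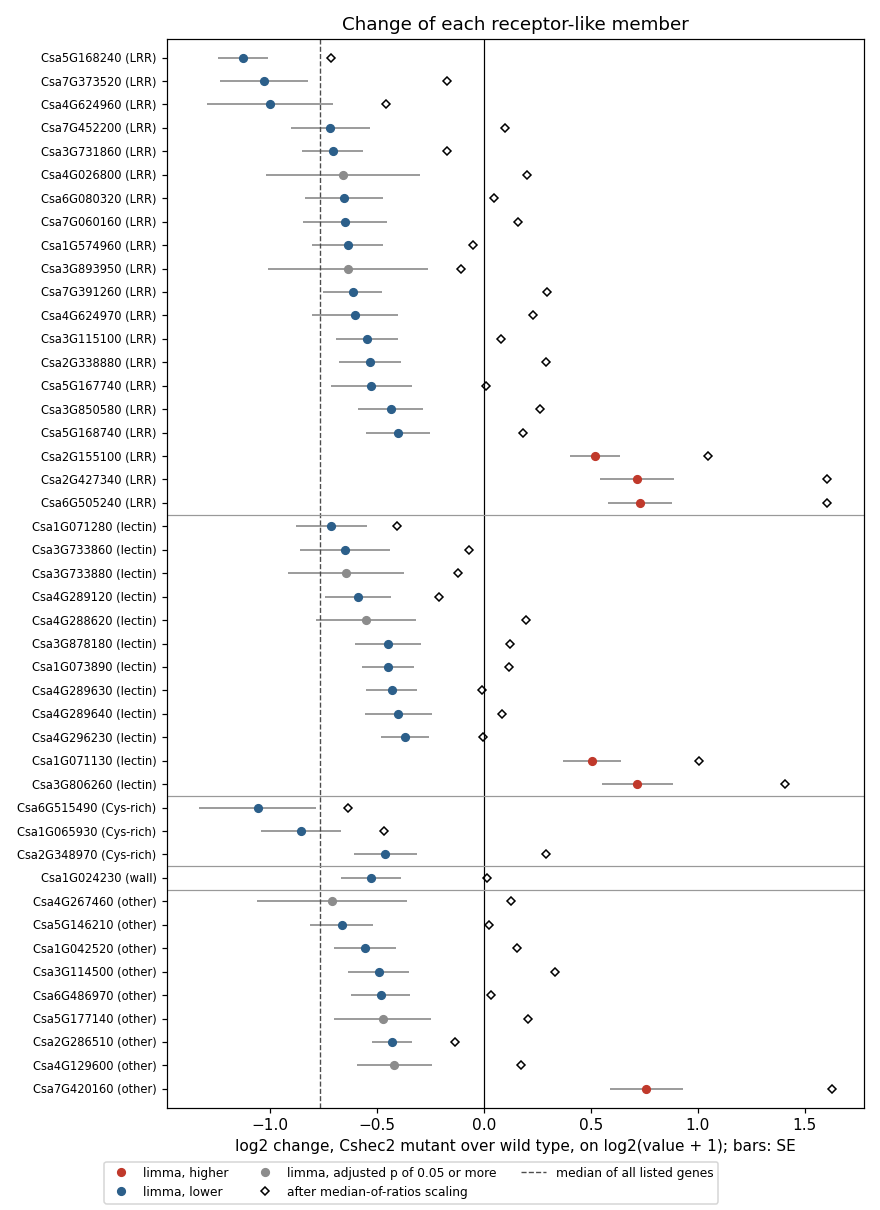
Log2 change of each member, Cshec2 mutant over wild type, on log2(value + 1), with bars for the SE, colour for the limma call, and open diamonds for the change after median-of-ratios scaling. The dashed line is the median of all listed genes (-0.77), and 5 members lay below it, as did 794 of all 1589 listed genes. The 6 higher members stayed above 0 under both scalings. After scaling, 19 of the 32 lower members turned positive, beside 388 of the 1180 lower listed genes.

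Lectin receptors held 2 higher and 8 lower members of 12, and 2 did not pass. These shares of 16.7% and 66.7% were near the 18.4% and 74.3% of all listed genes. The median log2 change was -0.45, or 0.04 after median-of-ratios scaling, and none passed as lower by at least 1 (0 of 12). A D-mannose binding lectin, the mark of the G-type family, was annotated in 9 of the genes and a legume lectin, the mark of the L-type family, in 3. Of the 9 G-type genes, 1 was higher, 6 were lower and 2 did not pass. Of the 3 L-type genes, 1 was higher and 2 were lower. The lower share was 66.7% in each family, beside 74.3% of all listed genes.

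Among the lower genes of the class, the largest decrease was in Csa1G071280, a G-type gene described by At1g11330 and without an annotated kinase domain. It measured 0.187, 0.249 and 0.165 in mutant buds and 0.606, 0.888 and 1.51 in wild type buds. All mutant values were lower, the wild type mean being 5.01-fold above the mutant mean, and the log2 change of -0.71 (SE 0.16, limma adjusted p = 0.0081) passed after scaling as well (-0.41, adjusted p = 0.0403). With values this low the added 1 compresses the log2 change. Its neighbour by identifier moved in the opposite direction. Csa1G071130, a G-type gene described by At4g27290 and likewise without a kinase domain, measured 1.71, 1.94 and 1.25 in mutant buds and 0.834, 0.746 and 0.953 in wild type buds. All mutant values were higher, and the log2 change was 0.51 (SE 0.14, limma adjusted p = 0.0129), or 1.01 after scaling.

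A run of 4 close identifiers holds G-type genes, and 3 of them are described as LECRK3, one of a group of rice lectin kinases linked to planthopper resistance. Csa4G289120, described as RLK1, measured 0.309, 0.516 and 0.392 in mutant buds and 0.702, 1.29 and 1.42 in wild type buds, and passed (log2 change -0.59, limma adjusted p = 0.0118). Csa4G289630 measured 0.661, 0.549 and 0.569 in mutant buds and 0.864, 1.28 and 1.33 in wild type buds (limma adjusted p = 0.0143). Csa4G289640 measured 0.954, 0.854 and 0.666 in mutant buds and 1.10, 1.24 and 1.94 in wild type buds (limma adjusted p = 0.0424), a call that held only without wild type library 1 among the fits that left out a library. In these genes every mutant library was lower than every wild type library, and wild type library 1 was the lowest of its group. Csa4G288620 had the same order, with 3.56, 3.14 and 3.11 in mutant buds and 3.68, 5.27 and 7.34 in wild type buds, but did not pass (limma adjusted p = 0.0538). Changes after median-of-ratios scaling were -0.21, -0.01, 0.09 and 0.20 in that order.

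A further pair of neighbours is described as ZmPK1, a maize G-type kinase. Csa3G733860 measured 1.05, 1.12 and 1.27 in mutant buds and 1.51, 2.48 and 3.37 in wild type buds, with a log2 change of -0.65 (limma adjusted p = 0.0239). Csa3G733880 measured 0.786, 0.940 and 0.873 in mutant buds and 0.964, 1.95 and 3.30 in wild type buds, and did not pass (log2 change -0.65, limma adjusted p = 0.0526). Both had the lowest wild type value in library 1 and the highest in library 3, and the ranges of the genotypes did not overlap in either. Without wild type library 2 or any 1 of the mutant libraries, Csa3G733860 no longer passed (adjusted p from 0.052 to 0.0696), nor did it after scaling, with a change of -0.07.

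Csa3G878180, described as SD2-5, measured 1.47, 0.834 and 1.46 in mutant buds and 1.92, 2.10 and 2.13 in wild type buds. The mutant values were all lower, led by library 2, but the limma adjusted p of 0.0288 became 0.094 without mutant library 2, 0.0732 without wild type library 2 and 0.056 without wild type library 3, and the change was 0.12 after scaling. In the L-type family, Csa1G073890 (receptor kinase VII.1) measured 1.15, 1.32 and 1.11 in mutant buds and 1.96, 1.79 and 2.23 in wild type buds, and Csa4G296230 (receptor kinase IV.2) measured 0.486 ± 0.079 in mutant buds and 0.927 ± 0.208 in wild type buds (SD, n = 3 each). The ranges of both were apart, and both passed as lower, though IV.2 did not without mutant library 2. After scaling neither passed, with changes of 0.12 for VII.1 and -0.0048 for IV.2. Csa3G806260 (receptor kinase S.5) measured 4.98, 4.06 and 3.86 in mutant buds and 2.44, 1.83 and 2.40 in wild type buds. All its mutant values were higher, with a mean 1.93-fold that of wild type (log2 change 0.72, SE 0.17, limma adjusted p = 0.00811), and the change was 1.41 after scaling.

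All 3 cysteine-rich receptor-like kinases (CRKs) passed as lower, with a median log2 change of -0.86. After median-of-ratios scaling the median was -0.47 and 1 of the 3 turned positive, beside 388 of the 1180 lower listed genes. A share of 100% from 3 genes is read against the 74.3% of the whole table. Csa6G515490, described as CRK26 and without an annotated kinase domain, measured 0.323, 0.354 and 0.375 in mutant buds and 0.812, 2.04 and 3.04 in wild type buds. The mutant values were even and all lower, the wild type values ranged 3.74-fold, and the log2 change was -1.06 (SE 0.27, limma adjusted p = 0.0117), or -0.64 after scaling (adjusted p = 0.0587).

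Csa1G065930, described as CRK29, measured 0.241, 0.422 and 0.335 in mutant buds and 1.02, 1.15 and 2.23 in wild type buds. It was lower in all 3 mutant libraries (log2 change -0.86, SE 0.19, limma adjusted p = 0.00722) and passed after scaling (-0.47, adjusted p = 0.0429). Csa2G348970, described as CRK2, measured 3.26, 3.64 and 3.81 in mutant buds and 5.57, 5.002 and 5.31 in wild type buds. The genotypes did not overlap and neither group was uneven, but the change was the smallest of the 3 genes (log2 change -0.46, limma adjusted p = 0.0222) and was 0.29 after scaling. It did not pass without any 1 of the mutant libraries (adjusted p from 0.0534 to 0.0735).

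One member, Csa1G024230, carried a wall-associated kinase domain. It is described as LRK10L-1.2, a relative of a wheat kinase from a leaf rust resistance locus, and measured 1.19, 0.720 and 1.21 in mutant buds and 1.77, 2.02 and 1.99 in wild type buds. All mutant values were lower (log2 change -0.53, SE 0.14, limma adjusted p = 0.0129), with 0.01 after scaling. Csa1G042520 has the same description without that domain, was grouped with the others, and measured 2.88, 2.50 and 2.42 in mutant buds and 4.57, 4.23 and 4.08 in wild type buds. Its ranges were also apart (log2 change -0.56, limma adjusted p = 0.0116), and the change was 0.15 after scaling.

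The 9 other members held 1 higher and 5 lower genes, and 3 did not pass. These were 11.1%, 55.6% and 33.3%, beside 18.4%, 74.3% and 7.30% of all listed genes, and were not tested against them. The higher one, Csa7G420160, is described by At2g47060, a cytoplasmic kinase of the PTI1 type in Arabidopsis. It measured 21.2, 23.3 and 19.2 in mutant buds and 13.7, 12.8 and 10.1 in wild type buds. Every mutant library was higher (log2 change 0.76, SE 0.17, limma adjusted p = 0.00757), and the change was 1.63 after scaling. By the ratio of means it was 1.74-fold higher.

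Relatives of receptors with known ligands were among the others. Csa4G129600, described as FERONIA, a malectin-type receptor of RALF peptides that acts in cell expansion and pollen tube reception, measured 1.66, 1.54 and 1.05 in mutant buds and 2.18, 1.75 and 2.80 in wild type buds. The ranges did not overlap, but it did not pass (log2 change -0.42, limma adjusted p = 0.0526). Csa5G177140, also with a malectin-type domain, overlapped between the genotypes and did not pass (limma adjusted p = 0.0768). Csa2G286510, described as NFP, the Nod factor receptor of Medicago, measured 0.393, 0.197 and 0.278 in mutant buds and 0.744, 0.645 and 0.821 in wild type buds. It was lower in every mutant library (log2 change -0.43, SE 0.09, limma adjusted p = 0.0071), with -0.13 after scaling.

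Csa5G146210, described by At1g33260, measured 1.90, 2.22 and 2.35 in mutant buds and 4.39, 3.97 and 3.66 in wild type buds, with ranges apart (log2 change -0.67, SE 0.15, limma adjusted p = 0.00735) and a change of 0.02 after scaling. The cytosolic RBK kinases bind ROP GTPases, the switches of polar growth, in Arabidopsis. Csa3G114500 (RBK1) measured 6.73, 6.45 and 6.72 in mutant buds and 10.2, 9.06 and 10.01 in wild type buds, and Csa6G486970 (RBK1) measured 0.825, 0.996 and 0.951 in mutant buds and 1.40, 1.58 and 2.14 in wild type buds. Both passed as lower (log2 changes -0.49 and -0.48, limma adjusted p = 0.0162 and 0.0151), and both changes were positive after scaling (0.33 and 0.03). Csa3G114500 did not pass without mutant library 2 or 3, and Csa6G486970 did not pass without mutant library 1. Csa4G267460 (RBK2) measured 6.55, 7.03 and 6.76 in mutant buds and 6.73, 11.5 and 20.3 in wild type buds, where library 1 lay inside the mutant range, and did not pass (limma adjusted p = 0.0856).

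The wild type libraries were the less even group for these genes, as for the table. The SD of the log2 values was larger in wild type than in the mutant for 75.6% of the members and for 78.5% of all listed genes, with a median over the members of 0.11 in mutant buds and 0.21 in wild type buds. Wild type library 3 was at least 2-fold above library 1 in 11 members (24.4%), against 20.2% of all listed genes. Library 1 did not exceed the highest mutant library in 3 of the 39 members listed as lower (7.69%), against 4.63% of such genes in the table. These were the SERK2, HAIKU2 and RBK2 relatives, none of which passed. Library 3 was above library 1 in 33 of the 45 members and in 55.2% of all listed genes. This held in 9 of the 9 G-type and 1 of the 3 L-type lectin genes, a difference between the families that was not tested.

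**Figure D3:**
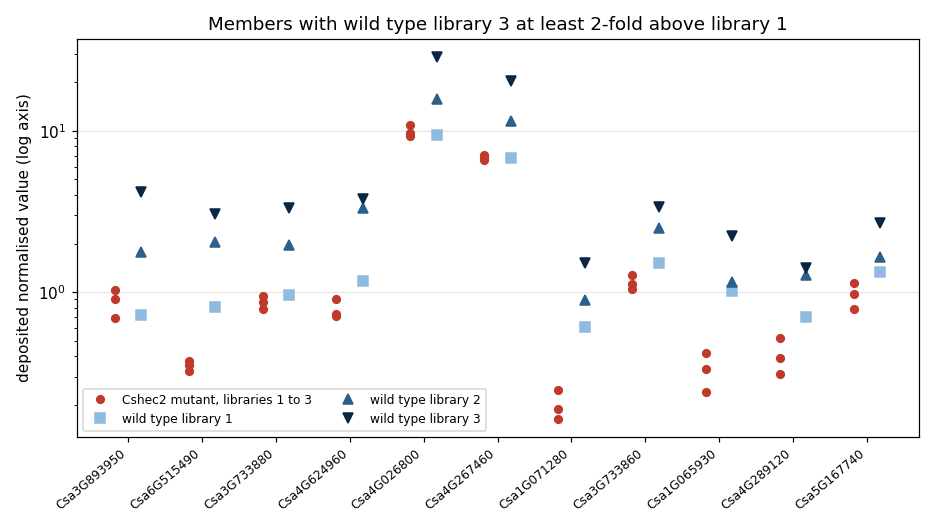
Deposited normalised values, on a log axis, of the 11 members in which wild type library 3 was at least 2-fold above library 1, with the 3 mutant libraries as circles to the left of the wild type libraries, which have a symbol each. The ratio of library 3 to library 1 runs from 5.81 in Csa3G893950 at the left to 2.00 in Csa5G167740 at the right, and library 1 lay among the mutant values in Csa3G893950, Csa4G026800 and Csa4G267460.

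Leaving out single libraries changed the number of lower members more than that of higher ones, as it did for all listed genes. The 6 higher members passed in all 6 fits that left out a library, as did 17 of the 32 lower members. The share of all listed genes that passed in every such fit was not counted, so this contrast is not read as particular to the members. The lower members numbered 19 without mutant library 2, 20 without mutant library 3, and between 23 and 36 without each of the others. Over all 1589 listed genes, leaving out a library gave 263 to 289 higher and 823 to 1236 lower genes. At an adjusted p of 0.01, 5 of the 45 members passed as higher and 8 as lower, against 195 and 635 of the 1589 listed genes.

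Other steps of receptor kinase signalling were represented by few listed genes. All 6 genes matched by name for the MAP kinase cascade, which relays receptor signals, passed as lower, beside 74.3% of all listed genes. After median-of-ratios scaling 2 of the 6 passed. Not all are kinases: Csa4G004870 and Csa7G433180 are described as a MAPK kinase substrate protein and have no annotated kinase domain. Csa7G433180 was among those that passed after scaling. Csa1G479630, described as mitogen-activated protein kinase 3, which acts downstream of immune and developmental receptors, measured 3.44 ± 0.299 in mutant buds and 11.3 ± 3.11 in wild type buds (SD, n = 3 each). The log2 change was -1.45 (limma adjusted p = 0.00227), and -0.65 after scaling. Of 2 cytoplasmic kinases, Csa7G024130 (PIX13) passed as lower, with a log2 change of -0.96 that was -0.18 and did not pass after scaling, and Csa3G912320 (PBL19) did not pass. Both respiratory burst oxidase genes, which make the superoxide that follows receptor activation, passed as higher, beside 18.4% of all listed genes. They passed again after scaling, which moves changes upward. Csa5G529950 (homolog E) measured 2.13 ± 0.0574 in mutant buds and 1.05 ± 0.342 in wild type buds, and Csa6G301070 (homolog H) measured 1.96 ± 0.171 in mutant buds and 1.07 ± 0.329 in wild type buds (SD, n = 3 each).

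Among 4 genes for peptide ligands and their processing, 1 (25%) was higher and 3 (75%) were lower, beside 18.4% and 74.3% of all listed genes. Csa6G497000, described as EPIDERMAL PATTERNING FACTOR-like protein 2, a ligand of ERECTA-type leucine-rich repeat receptors, measured 25.3, 22.4 and 22.1 in mutant buds and 16.3, 10.4 and 10.6 in wild type buds. All mutant libraries were higher (log2 change 0.88, SE 0.20, limma adjusted p = 0.00801). Csa7G368090, described as EPIDERMAL PATTERNING FACTOR-like protein 9, which promotes stomata in Arabidopsis, measured 5.54, 4.61 and 4.13 in mutant buds and 15.8, 16.6 and 5.99 in wild type buds, all above the mutant but with library 3 well below the others (limma adjusted p = 0.0223). Both subtilisin-like protease genes of the list passed as lower, and none of these 3 lower genes passed after scaling (0 of 3). Of 8 U-box genes, 2 (25%) were higher and 6 (75%) lower, beside 18.4% and 74.3% of all listed genes. After scaling 2 were higher and 1 lower.

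Markers of other bud tissues were also among the genes that passed on the deposited scale. All 3 photosynthesis genes passed as lower, beside 74.3% of all listed genes, but 0 of the 3 passed after scaling. Their summed values were 109 to 125 in mutant buds and 165 to 213 in wild type buds. The 3 sieve element occlusion genes, which belong to phloem, passed as higher, and the other 3 phloem-list genes, 2 of them F-box proteins that match by name, passed as lower. The phloem list was thus 50% higher and 50% lower, beside 18.4% and 74.3% of all listed genes. After scaling, which moves changes upward, the 3 occlusion genes passed again and 0 of the other 3 did. The summed values of the 6 phloem-list genes ran from 30.1 to 34.5 in mutant buds and from 25.1 to 34.4 in wild type buds. Pollen, anther and xylem keywords matched no listed gene (0 each). The part of tissue composition in the changes of the members was not tested.

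**Figure D4:**
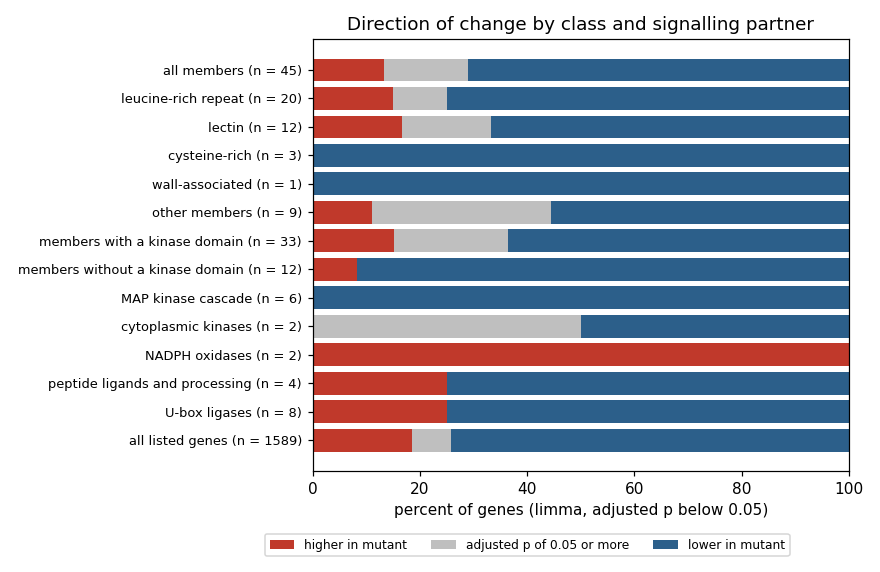
Share of genes, in percent, that passed limma as higher (left), did not pass (middle) or passed as lower (right) in the Cshec2 mutant, for the members, their classes, the other signalling lists and all listed genes, on the deposited scale. All 45 members together were 13.3% higher and 71.1% lower, against 18.4% and 74.3% of all 1589 listed genes; scaling the libraries left 6 members higher and 3 lower.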

How the data were processed

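Total RNA of female buds was sequenced from 6 libraries, 3 of the Cshec2 mutant and 3 of wild type, grouped by the genotype label. The submitters' processing notes name HISAT2, HISAT and DESeq2 without a version or a role; the genome build and gene models were not given in the sources used here. The deposited table holds the authors' normalised expression signal per gene and library, of unnamed unit. Its deposited FDR column holds the adjusted p-value, and its log2 fold change column the change, of the authors' own comparison; both are used only where named as the authors'. Only genes the authors had called different are listed, so the number of calls is not an independent count. For the same reason the adjusted p-values given here do not control a false discovery rate.

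Here limma 3.58.1 in R 4.3.3, with a variance trend, was fitted to log2(value + 1) of all 1589 genes, without a filter on low values, with Benjamini-Hochberg adjustment of p-values across the table. The script was tested on simulated data. Depth is unknown, so no interval that needs it is given. P-values weigh the genotype difference against the variance among 3 libraries per genotype, which limma moderated towards a trend over all listed genes. Members, classes and lists were chosen with earlier results of these data known. The short keywords CLE and PP2 were matched as whole words, since the letters alone also matched unrelated genes. The genes described first in each class were, by rule, up to 5 passing members per class and direction with the largest log2 change, if the genotype with more expression had a mean of 1 or above (24 genes); the other members were added so that each is accounted for. Alternatives were median-of-ratios scaling, no variance trend, a filter on means below 1, pseudocounts of 0.1 or 0.5, a replicate block, leaving out each library, and an adjusted p of 0.01. Both other memberships (only genes with a kinase domain; receptor like without a hyphen) were chosen once values were known. Figures were drawn with matplotlib 3.10.9.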

Additional observations from a re-analysis of the deposited data

How the results depend on the processing

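The 6 higher members numbered between 5 and 8 under every alternative run. The 32 lower members fell to 3 after median-of-ratios scaling and to 8 at an adjusted p of 0.01, and numbered 21 when only genes with a kinase domain were counted, a set of 33 in place of 45. With each library left out, higher members numbered 6 throughout and lower members from 19 to 36. Over all listed genes, 293 were higher and 1180 lower; scaling left 225 lower, an adjusted p of 0.01 left 195 higher and 635 lower, and leaving out a library gave 263 to 289 higher and 823 to 1236 lower. Median-of-ratios scaling sets the middle of a table of selected genes to about 0, which by its construction removes calls from a table that is mostly lower. By the same construction it raises the changes of genes that are already higher, so their calls are not tested by it. It turned the members' median log2 change to 0.10, and among the 24 genes chosen by rule it turned the sign of Csa7G452200 (0.10), Csa3G878180 (0.12), Csa1G073890 (0.12), Csa2G348970 (0.29), Csa1G024230 (0.012), Csa5G146210 (0.024), Csa1G042520 (0.15), Csa3G114500 (0.33) and Csa6G486970 (0.035). The members' median was -0.77 with a pseudocount of 0.1, where that of all listed genes was -0.94. It ran from -0.59 to -0.46 with each library left out.

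Deviations from the genotype mean correlated at -0.09, -0.04 and -0.18 between same-numbered libraries over all listed genes. Between differently numbered libraries they correlated from -0.07 to 0.16. With 3 libraries per genotype, these values cannot decide whether replicate numbers pair the libraries. With the replicate block 6 members were higher and 26 lower, against 288 and 1104 of all listed genes. Fewer samples enter each fit without 1 library, yet lower members were more numerous without wild type library 1 (36). Depth is unknown, so how far it limits the genes with low values cannot be stated.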

Other observations

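The wording that chose the members leaves out 4 genes described as receptor like, without the hyphen, which were added as an alternative after the data had been seen. Csa6G169860 and Csa1G435800, both described as receptor like protein 29, were higher. Csa6G169860 measured 28.0 ± 2.08 in mutant buds and 16.7 ± 2.12 in wild type buds, and Csa1G435800 measured 6.36 ± 0.922 in mutant buds and 3.599 ± 0.539 in wild type buds (SD, n = 3 each). Both carry leucine-rich repeats without an annotated kinase domain, a group in which all 8 members had passed as lower. Csa3G175080 and Csa5G168900, both described as MDIS1-interacting receptor like kinase 2, which takes part in pollen tube guidance in Arabidopsis, were lower. Csa5G168900 measured 0.276 ± 0.102 in mutant buds and 1.93 ± 0.393 in wild type buds, and passed after median-of-ratios scaling too (limma adjusted p = 0.00142), which Csa3G175080 did not (log2 change -0.32, limma adjusted p = 0.277). With these genes added, 8 were higher and 34 lower.

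Other genes with a kinase domain, 24 in the table, held 3 higher and 18 lower genes, with 74.3% of all listed genes lower. They include Csa3G175080 and Csa5G168900, described above as receptor like. The median log2 change of the 24 genes was -0.70, against -0.55 for all 45 members and -0.53 for the 33 members with a kinase domain. After median-of-ratios scaling 3 were higher and 4 lower. The medians were then 0.0087 for these genes and 0.098 for all members, as for the members with a kinase domain. The differences were not tested.

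In the authors' deposited table the log2 fold change was smaller in size than the log2 ratio of the means computed here for 40 of the 45 members, and for 89.6% of all listed genes with both values. The gap was widest for Csa6G515490, with -1.52 in the authors' deposited table against a ratio of means of -2.49, and Csa1G071280, with -1.49 against -2.32. The cause was not tested.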
